A study of Mus musculus with 14 samples.

Results

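The miRNAs carried by plasma extracellular vesicles (EVs) were compared between mice given 9 Gy and mice given 2 Gy of whole-body ionizing radiation (WBIR). The 10 samples were 5 from each dose, all from young adult female C57BL/6J mice exposed to a cesium irradiator, with blood taken by cardiac puncture 3 days later. For mice the lower dose is survivable and the higher dose is lethal, so the comparison asks which EV miRNAs separate a lethal from a sublethal exposure. Counts came from the NanoString nCounter mouse miRNA panel, in which each miRNA is ligated to a tag, hybridised to a color-coded barcode and counted by an imager. Mouse miRNA probes with a mean of at least 10 counts over these 10 samples were taken, which gave 167 of the 566 mouse miRNA probes on the panel. The sham samples of the series were left out of every value below except an alternative fit of all 3 groups. The sources do not say whether a sample came from 1 mouse or a pool, so p-values measure only the spread between these samples.

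EVs are membrane-bound particles that cells release into body fluids, and their RNA comes from many tissues, with blood cells and platelets among the known sources in plasma. A miRNA is a short RNA that guides an Argonaute protein to messenger RNAs and lowers their translation or stability. Most targeting runs through the seed, the stretch near the 5′ end of the miRNA that pairs with the messenger RNA, and miRNAs with the same seed form a family with shared targets. Radiation breaks DNA and activates p53, which raises several miRNAs and alters the processing of others, and dividing blood progenitors and gut epithelium are the tissues hit first.

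The sequences of the miRNAs on which the dose comparison turns are shown first, because the families follow from them. They are RefSeq mature miRNAs of assembly GRCm38.p6, written 5′ to 3′ with the seed (bases 2 to 8) in capitals. Of the 167 probes, 131 matched a mature entry by name and 36 did not. Most panel names give no arm of the hairpin, so both annotated arms are printed where the table holds both, and which of them a probe reads is not stated in the sources used here. The first set holds miRNAs that were higher at 9 Gy and passed the threshold with counts divided by the hybridisation positive controls. miR-1839-3p, miR-1944 and miR-2183 also belong to that set.
miR-376a-3p: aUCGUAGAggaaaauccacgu
miR-376a-5p: gGUAGAUUcuccuucuaugagu
let-7d-5p: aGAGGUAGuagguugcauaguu
let-7d-3p: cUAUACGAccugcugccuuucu
miR-101b-3p: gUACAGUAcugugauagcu
miR-101b-5p: uCGGUUAUcaugguaccgaugcu
miR-367-3p: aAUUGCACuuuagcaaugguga
miR-367-5p: aCUGUUGCuaacaugcaacuc
miR-872-5p: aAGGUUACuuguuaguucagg
miR-872-3p: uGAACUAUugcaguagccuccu
miR-504-5p: aGACCCUGgucugcacucuauc
miR-568: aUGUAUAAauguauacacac
miR-1191a: cAGUCUUAcuauguagcccua

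The second set holds miR-203, miR-205 and miR-31, which had the lowest unadjusted p among probes with less signal at 9 Gy with TMM, and miR-376b, the relative of miR-376a whose 3p arm is also in the table.
miR-203-3p: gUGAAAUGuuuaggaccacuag
miR-203-5p: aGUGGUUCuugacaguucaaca
miR-205-5p: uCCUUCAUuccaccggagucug
miR-205-3p: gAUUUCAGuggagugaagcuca
miR-31-5p: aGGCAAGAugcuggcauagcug
miR-31-3p: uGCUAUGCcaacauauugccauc
miR-376b-3p: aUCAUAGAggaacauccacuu
miR-376b-5p: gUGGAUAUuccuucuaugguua

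In GRCm38.p6 the miR-376a hairpin lies at chr12:109723781-109723848 on the plus strand, in the imprinted Dlk1-Dio3 cluster and outside any other annotated gene. The let-7d hairpin lies at chr13:48536012-48536114 on the minus strand, also outside other genes. Hairpins inside the span of a protein-coding gene were miR-101b at chr19:29135279-29135375 in Rcl1, miR-367 at chr3:127545733-127545807 in Larp7, miR-872 at chr4:94665157-94665237 in Ift74, miR-568 at chr16:43640655-43640737 in Tigit, miR-1191 at chr7:27205536-27205655 in BC024978 and miR-504 at chrX:59097658-59097736 in Fgf13. The gene table used gives gene spans only, so exon or intron was not assigned.

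Total signal and controls were examined before single miRNAs. Over the 599 miRNA probes, the deposited counts summed to 10455, 8771, 8019, 8637 and 9350 in replicates 1 to 5 at 2 Gy and to 12354, 12288, 11518, 15068 and 20150 at 9 Gy. Every 9 Gy sample was above every 2 Gy sample, with geometric means 1.55-fold apart (exact permutation test, two-sided p 0.00794, the smallest this design allows). Of the mean difference of 5230 counts, miR-376a alone made up 68.8%. Without that probe the totals were 6229 ± 409 at 2 Gy and 7862 ± 956 at 9 Gy (SD, n = 5 each), 1.26-fold apart with the same exact permutation p of 0.00794. The controls added to each assay differed less. The hybridisation positive controls, DNA targets added at fixed amounts, had a geometric mean of 988 ± 114 counts at 2 Gy and 1052 ± 87.0 at 9 Gy (SD, n = 5, exact permutation p 0.357). The ligation positive controls, which report the tagging reaction, had 2332 ± 485 and 2650 ± 505 counts (SD, n = 5, exact permutation p 0.294). The negative control probes averaged 12.3 ± 1.69 and 14.2 ± 0.934 counts (SD, n = 5, exact permutation p 0.0556). That mean was raised by 1 of the 8 probes, NEG_C, at 30 to 76 counts over the 10 samples. Without NEG_C the mean was 6.97 ± 0.396 at 2 Gy and 7.57 ± 0.782 at 9 Gy (SD, n = 5, exact permutation p 0.175). With NEG_C included, 89 of the 167 miRNA probes at 2 Gy and 65 at 9 Gy had a mean below the negative control mean, and with NEG_C left out 2 at 2 Gy (miR-1952 and miR-155) and 0 at 9 Gy did. A stricter limit, the negative control mean plus 2 SD, was exceeded by 7 to 16 of the 167 probes per sample with NEG_C. Without NEG_C it was exceeded by 45 to 139. Most counts were low, as 129 of the 167 probes had a mean under 20 counts and only 5 had a mean of 100 or more.

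**Figure D1:**
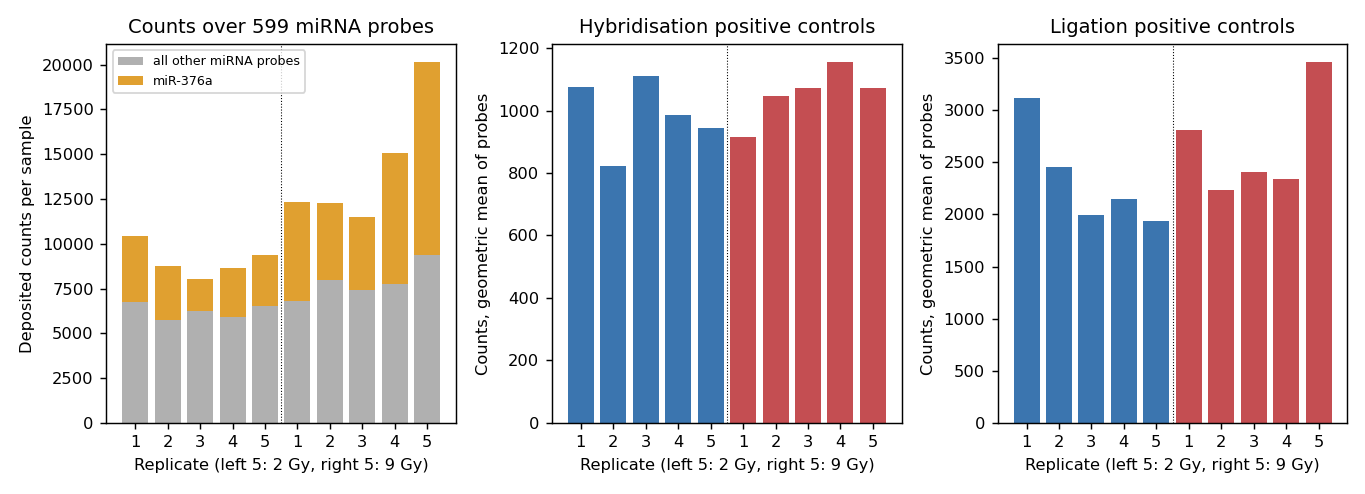
Deposited counts in each of the 10 samples, with replicates 1 to 5 of 2 Gy on the left of the dotted line and those of 9 Gy on the right. The left panel stacks miR-376a on all other miRNA probes, and the other panels give the geometric means of the hybridisation and ligation positive controls. Totals at 9 Gy start at 11518, above the highest 2 Gy total of 10455, while both sets of controls overlap between the doses.

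Because the doses differed in total signal, the answer for a single miRNA depended on what the counts were divided by, and 2 scalings are given side by side. TMM (trimmed mean of M values) takes the typical miRNA probe as equal between samples, and its factors were 1.25-fold higher at 9 Gy. POS scaling divides by the hybridisation positive controls and its factors were 1.07-fold higher at 9 Gy. The same quasi-likelihood test of edgeR followed either scaling, with Benjamini-Hochberg adjustment over all 167 probes and a threshold of an adjusted p of 0.05. With TMM the median log2 difference (9 Gy minus 2 Gy) of the 167 probes was 0.02, and with POS scaling it was 0.25. The edgeR test is against 0 with either scaling, so a POS-scaled difference contains this shift of 0.25, whose cause was not tested.

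With TMM no miRNA passed the threshold (0 of 167, a background of 0.0%), and the smallest adjusted p by edgeR was 0.141. At an unadjusted p under 0.05 there were 15 higher (8.98%) and 5 lower (2.99%), while DESeq2 passed 1 and limma-voom passed 0. With POS scaling 11 of the 167 passed (6.59%), and all 11 were higher at 9 Gy. Of these, let-7d, miR-872, miR-504 and miR-1944 had a 2 Gy mean under 10, so these 4 met the count limit only through their 9 Gy samples. The limit let in more probes this way (37) than through the 2 Gy samples alone (3). The 11 were miR-376a, miR-2183, miR-1839-3p, miR-568, miR-1191, miR-101b, miR-367, let-7d, miR-872, miR-504 and miR-1944. The same 11 were all higher with TMM at an unadjusted p under 0.05, with log2 differences from 0.47 to 0.92 against 0.70 to 1.15 with POS scaling. POS calls were lost altogether without 2 Gy replicate 3, 4 or 5 or without 9 Gy replicate 5 (0 passed each time). With the other samples left out 5 to 9 passed, with 5 without 2 Gy replicate 1 or 2, 6 without 9 Gy replicate 2 and 7 without 9 Gy replicate 4.

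In 9 Gy replicate 5 the deposited count was the highest of all 10 samples, or tied for it, for 69 of the 167 probes and for 9 of the 11 that passed with POS scaling. After TMM scaling this held for 28 of the 167 and 7 of the 11. The same sample had the highest total, the highest ligation control (3463 counts) and the largest miR-376a share. Whether these go together was not tested. Of the 11, 8 had a mean under 30 counts, and 5 had a 2 Gy mean below the negative control mean of the 2 Gy samples with NEG_C included, against 0 with NEG_C left out.

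**Figure D2:**
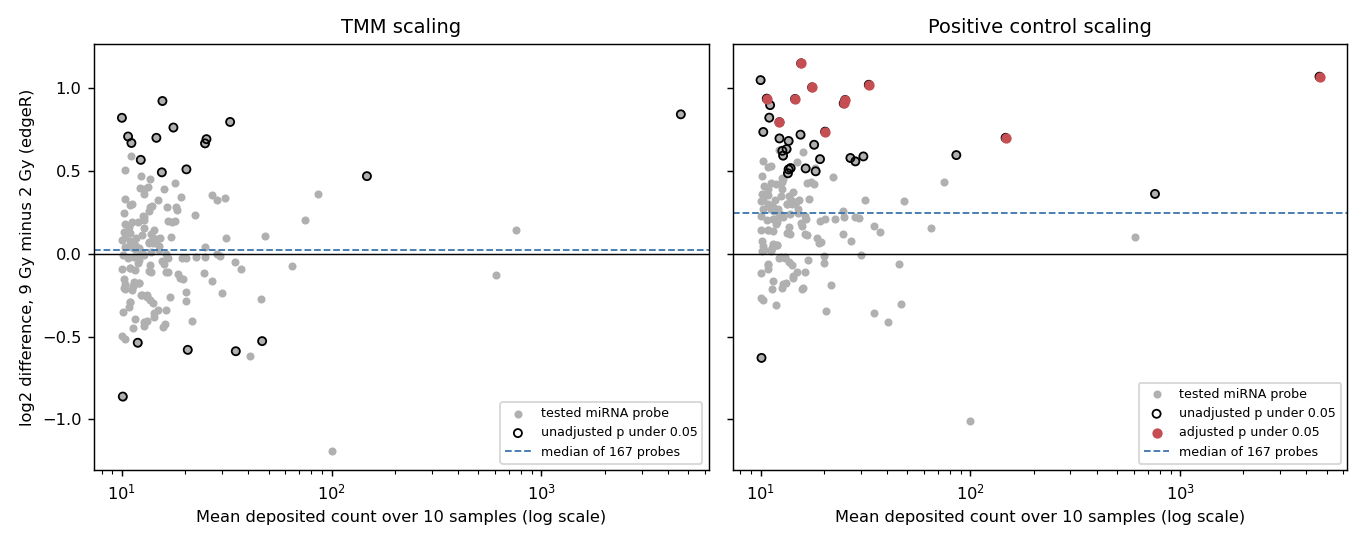
The log2 difference between 9 Gy and 2 Gy (edgeR) is plotted against the mean deposited count over the 10 samples on a log axis, for TMM on the left and POS scaling on the right. Grey points are tested probes, rings have an unadjusted p under 0.05, red points have an adjusted p under 0.05, and the dashed line is the median of the 167 probes at 0.02 or 0.25. miR-155, which was at 1 count in all 2 Gy samples, is outside the drawn set. No point is red on the left and 11 are red on the right, all above the dashed line.

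miR-376a, an miRNA of the imprinted Dlk1-Dio3 cluster, had the highest count of any probe in both doses. It had 3703, 3008, 1789, 2732 and 2853 counts in replicates 1 to 5 at 2 Gy and 5547, 4338, 4100, 7320 and 10763 at 9 Gy. Every 9 Gy sample was above every 2 Gy sample in deposited counts, and the ratio of means was 2.28. After POS scaling the doses still did not overlap, with 1635 to 3715 at 2 Gy and 3881 to 10182 at 9 Gy. The log2 difference was 1.07 ± 0.25 (SE) with POS scaling (edgeR adjusted p 0.0367), and the adjusted p ran from 0.00112 to 0.166 over the alternatives tried with that scaling. With TMM it was 0.84 ± 0.26 (SE, edgeR adjusted p 0.149), and the doses overlapped. Its share of all miRNA counts was 30.8% ± 5.16 at 2 Gy and 43.6% ± 8.0 at 9 Gy (SD, n = 5), and this share is part of the total used in total count scaling. The study singled out miR-376a on these samples, with a somewhat larger increase at 9 Gy, so its direction is not independent evidence.

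The relatives of miR-376a in the same cluster were near the background. miR-376b had 16, 3, 12, 16 and 6 counts at 2 Gy and 5, 15, 19, 13 and 20 at 9 Gy. For miR-376c there were 12, 11, 24, 9 and 16 counts at 2 Gy against 16, 18, 16, 25 and 35 at 9 Gy. Both overlapped between doses, and their TMM log2 differences were 0.12 ± 0.33 and 0.28 ± 0.25 (SE, edgeR adjusted p 0.961 and 0.719).

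Other members of the cluster with higher counts were miR-136 and miR-539. The study also singled out miR-136 on these samples, with a larger increase at 9 Gy, so its direction is not independent evidence either. For miR-136 the counts were 795, 628, 584, 558 and 633 at 2 Gy and 829, 916, 857, 798 and 987 at 9 Gy. Deposited counts of miR-136 did not overlap between the doses, but they did after either scaling, and the log2 difference was 0.14 ± 0.12 with TMM and 0.36 ± 0.17 with POS scaling (SE, edgeR adjusted p 0.719 and 0.211). With 76, 62, 57, 69 and 63 counts at 2 Gy and 95, 91, 79, 106 and 159 at 9 Gy, miR-539 was likewise higher in every 9 Gy sample as deposited, but overlapped after either scaling. Its log2 difference was 0.36 ± 0.18 with TMM and 0.59 ± 0.21 with POS scaling (SE, edgeR adjusted p 0.426 and 0.107). Over the whole cluster, 20 of 63 probes on the panel were tested, 10 lay above and 10 below 0 with TMM, and their median of 0.01 was close to the 0.02 of all 167 probes. Of the 20, 5 met the count limit only through their 9 Gy samples. With POS scaling that median was 0.24 and 1 of the 20 passed, miR-376a, beside 6.59% of all 167 probes, while scaling by total count turned the median to -0.30. miR-376a thus had the largest TMM difference of the 20 tested members (0.84), and the lowest was -0.30.

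let-7d belongs to the let-7 family, which restrains growth and stemness genes such as Lin28 and Ras. It had 6, 12, 6, 12 and 10 counts at 2 Gy and 20, 12, 19, 24 and 35 at 9 Gy. The doses met at 12 counts, in replicates 2 and 4 at 2 Gy and replicate 2 at 9 Gy. The log2 difference was 0.92 ± 0.27 with TMM and 1.15 ± 0.30 with POS scaling (SE, edgeR adjusted p 0.141 and 0.0367).

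All 7 tested let-7 members share the seed GAGGUAG, yet their differences ran from -0.38 to 0.92 with TMM. Besides let-7d, let-7b and let-7e lay above 0 with TMM, at 0.40 ± 0.24 and 0.34 ± 0.24 (SE), let-7e coming to -0.0017 with total count scaling. let-7c (-0.38 ± 0.22), let-7f (-0.28 ± 0.19), let-7g (-0.23 ± 0.26) and let-7i (-0.29 ± 0.28) lay below 0 (SE, edgeR adjusted p 0.548 to 0.785 for these 4). The family median was -0.23 with TMM, -0.01 with POS scaling and -0.53 with total count scaling, each below the median of all probes. let-7f, the member with the highest counts, had 38, 49, 51, 46 and 42 counts at 2 Gy and 41, 54, 46, 50 and 42 at 9 Gy, which overlapped throughout. Of the 9 family probes on the panel, let-7a was at a mean of 1 count and miR-98 at 6.8, so neither was tested.

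miR-1839-3p and miR-664 derive from small nucleolar RNA genes, whose RNAs guide modification of other RNAs. The study singled both out on these samples, so their direction is not independent evidence. It named miR-1839 without an arm, and the miR-1839-5p probe, at means of 7 and 9.6 counts, was not tested. miR-1839-3p had 40, 21, 14, 16 and 13 counts at 2 Gy and 46, 36, 47, 42 and 53 at 9 Gy. Only 2 Gy replicate 1, at 40, reached into the 9 Gy range. The log2 difference was 0.79 ± 0.23 with TMM and 1.02 ± 0.25 with POS scaling (SE, edgeR adjusted p 0.141 and 0.0367). For miR-664 the counts were 31, 21, 19, 20 and 19 at 2 Gy and 30, 29, 33, 33 and 48 at 9 Gy, with only 2 Gy replicate 1 among the 9 Gy values. Its log2 difference was 0.32 ± 0.20 with TMM and 0.56 ± 0.21 with POS scaling (SE, edgeR adjusted p 0.548 and 0.107).

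miR-101b, miR-504 and miR-34b have known ties to DNA damage signalling. The miR-101 family represses the histone methyltransferase Ezh2 and DNA repair kinases. miR-101b had 13, 13, 16, 15 and 16 counts at 2 Gy and 26, 27, 20, 28 and 29 at 9 Gy. It was the 1 miRNA higher in every 9 Gy sample whether counts were taken as deposited, TMM-scaled or POS-scaled. Non-overlap of this kind was found for 9 probes as deposited (5.39%), for 1 with TMM (0.599%) and for 7 with POS scaling (4.19%). The log2 difference of miR-101b was 0.51 ± 0.22 with TMM and 0.74 ± 0.21 with POS scaling (SE, edgeR adjusted p 0.306 and 0.0423).

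miR-504, a repressor of p53 itself, had 9, 8, 8, 10 and 8 counts at 2 Gy and 10, 20, 19, 17 and 14 at 9 Gy. The doses met at 10 counts, and the 2 Gy values lay between the negative control means with NEG_C (12.3) and without it (6.97). Its log2 difference was 0.57 ± 0.25 with TMM and 0.79 ± 0.24 with POS scaling (SE, edgeR adjusted p 0.326 and 0.0485). miR-34b-5p, from a p53 target gene, had 13, 11, 7, 14 and 11 counts against 14, 16, 19, 23 and 27. The values met at 14, and neither scaling took it past the threshold, with log2 differences of 0.49 ± 0.23 and 0.72 ± 0.24 (SE, edgeR adjusted p 0.366 and 0.0749). Of the 16 panel probes in the DNA damage and p53 list, 8 were tested, 5 lay above 0 and 3 below with TMM, and the median was 0.20 against 0.02 for all probes. Of these 8, 3 (miR-101a, miR-34b-3p and miR-504) met the count limit only through their 9 Gy samples, so the median is not independent of the dose. With POS scaling the median was 0.42 against 0.25 and 2 of the 8 passed, miR-101b and miR-504, beside 6.59% of all 167 probes. With total count scaling the median was -0.12 against -0.30. miR-421, a repressor of the damage kinase ATM, had 42, 29, 35, 33 and 32 counts at 2 Gy and 34, 46, 45, 33 and 41 at 9 Gy. The doses overlapped, at -0.10 ± 0.18 with TMM and 0.13 ± 0.18 with POS scaling (SE).

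miR-367 belongs to a cluster active in pluripotent cells and has the same 3p seed, AUUGCAC, as miR-25. It had 13, 7, 13, 13 and 10 counts at 2 Gy and 20, 15, 17, 22 and 46 at 9 Gy. Every 9 Gy sample was higher as deposited and with POS scaling, but the doses overlapped with TMM, and 9 Gy replicate 5 stood furthest out. The log2 difference was 0.76 ± 0.26 with TMM and 1.00 ± 0.29 with POS scaling (SE, edgeR adjusted p 0.141 and 0.0423). For miR-25, which shares that seed, the TMM log2 difference was -0.42, on the other side of 0.

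The remaining miRNAs past the threshold with POS scaling have less settled roles. miR-2183 had 158, 100, 93, 93 and 96 counts at 2 Gy and 184, 156, 156, 177 and 259 at 9 Gy. Apart from 2 Gy replicate 1, no 2 Gy sample came near the 9 Gy samples. Its log2 difference was 0.47 ± 0.16 with TMM and 0.70 ± 0.20 with POS scaling (SE, edgeR adjusted p 0.141 and 0.0423).

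The counts of miR-568 were 19, 19, 14, 12 and 19 at 2 Gy and 25, 33, 34, 21 and 57 at 9 Gy. For miR-1191 they were 24, 15, 15, 15 and 14 against 27, 29, 35, 23 and 52. Deposited counts of miR-568 did not overlap between the doses, but they did after either scaling. Those of miR-1191 overlapped by 1 count as deposited, in 2 Gy replicate 1. Log2 differences were 0.69 ± 0.23 and 0.66 ± 0.23 with TMM and 0.93 ± 0.26 and 0.91 ± 0.24 with POS scaling (SE, edgeR adjusted p 0.0423 and 0.0367 with POS scaling). Lower still were miR-872, with 18, 5, 10, 9 and 6 counts against 14, 18, 19, 21 and 26, and miR-1944, with 8, 5, 6, 8 and 8 against 10, 16, 9, 19 and 18. Only 2 Gy replicate 1 of miR-872 reached the 9 Gy range, and miR-1944 did not overlap as deposited, by 1 count, but did after either scaling. Their log2 differences with POS scaling were 0.93 ± 0.25 and 0.93 ± 0.28 (SE, edgeR adjusted p 0.0367 and 0.0485), and 0.70 ± 0.25 and 0.71 ± 0.29 with TMM (edgeR adjusted p 0.141 and 0.219).

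**Figure D3:**
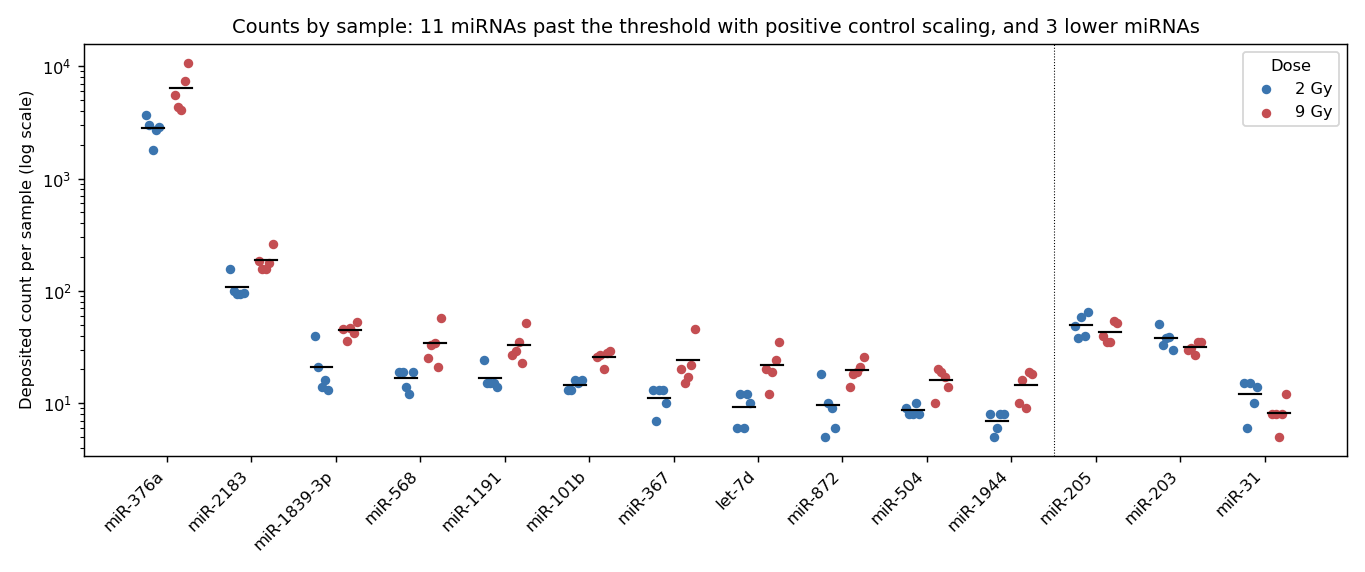
Deposited counts by sample on a log axis for the 11 miRNAs past the threshold with POS scaling and, right of the dotted line, for miR-205, miR-203 and miR-31. Each point is 1 sample, blue for 2 Gy and red for 9 Gy, and bars are means of 5 samples. For miR-376a the 9 Gy samples (4100 to 10763) lie above the 2 Gy samples (1789 to 3703), while the miRNAs from miR-568 to miR-1944 sit between 5 and 57 counts.

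Among miRNAs with less signal at 9 Gy with TMM, the smallest unadjusted p belonged to miR-203, miR-31 and miR-205. miR-203 limits stemness in skin by repressing p63. It had 51, 33, 38, 39 and 30 counts at 2 Gy and 30, 31, 27, 35 and 35 at 9 Gy, which overlapped. After TMM scaling the values were 53.6, 39.4, 41.9, 45.3 and 32.4 at 2 Gy and 31.9, 27.5, 24.7, 30.4 and 26.8 at 9 Gy. Every 9 Gy sample was then lower, as for 2 of the 167 probes (1.2%), the other being miR-19b. The log2 difference was -0.59 ± 0.18 with TMM (SE, edgeR adjusted p 0.141) and -0.36 ± 0.18 with POS scaling (edgeR adjusted p 0.263).

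miR-205, which holds back the ZEB factors of epithelial to mesenchymal transition, had 49, 38, 58, 40 and 65 counts at 2 Gy and 40, 35, 35, 54 and 52 at 9 Gy. For miR-31, expressed in skin and gut epithelium, the counts were 15, 6, 15, 10 and 14 against 8, 8, 5, 8 and 12. Both overlapped as deposited and after either scaling. miR-31 is not in the epithelial list used here, and with means of 12 and 8.2 it met the count limit only through its 2 Gy samples. The log2 differences of miR-205 and miR-31 were -0.53 ± 0.19 and -0.86 ± 0.29 with TMM and -0.30 ± 0.21 and -0.63 ± 0.29 with POS scaling (SE, edgeR adjusted p 0.149 and 0.141 with TMM and 0.449 and 0.210 with POS scaling). The 3 miRNAs passed as lower (3 of 167, 1.8%) when counts were divided by the total, miR-376a included, and miR-203 also passed with TMM when only probes with a mean of at least 30 counts were tested. In all, miR-203 and miR-205 each passed in 2 of 30 alternatives to the TMM fit, and miR-31 in 1 of 28.

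Of the 8 epithelial probes on the panel 5 were tested, 2 lay above 0 and 3 below with TMM, and their median was -0.44 against 0.02 for all probes. That median was -0.22 with POS scaling, against 0.25, and -0.76 with total count scaling. Of the 5, 2 (miR-141 and miR-429) met the count limit only through their 9 Gy samples. The remaining miRNAs named for a lower value were miR-1940 (-0.58 ± 0.24) and miR-1967 (-0.54 ± 0.26), with edgeR adjusted p of 0.222 and 0.402 with TMM (SE). Both were at 8 to 28 counts and overlapped between doses. Of miR-1952, higher at 0.82 ± 0.32 with TMM (SE, edgeR adjusted p 0.208), the mean of 10 counts sat exactly on the count limit, which it met only through its 9 Gy samples (6.2 counts at 2 Gy and 13.8 at 9 Gy).

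**Figure D4:**
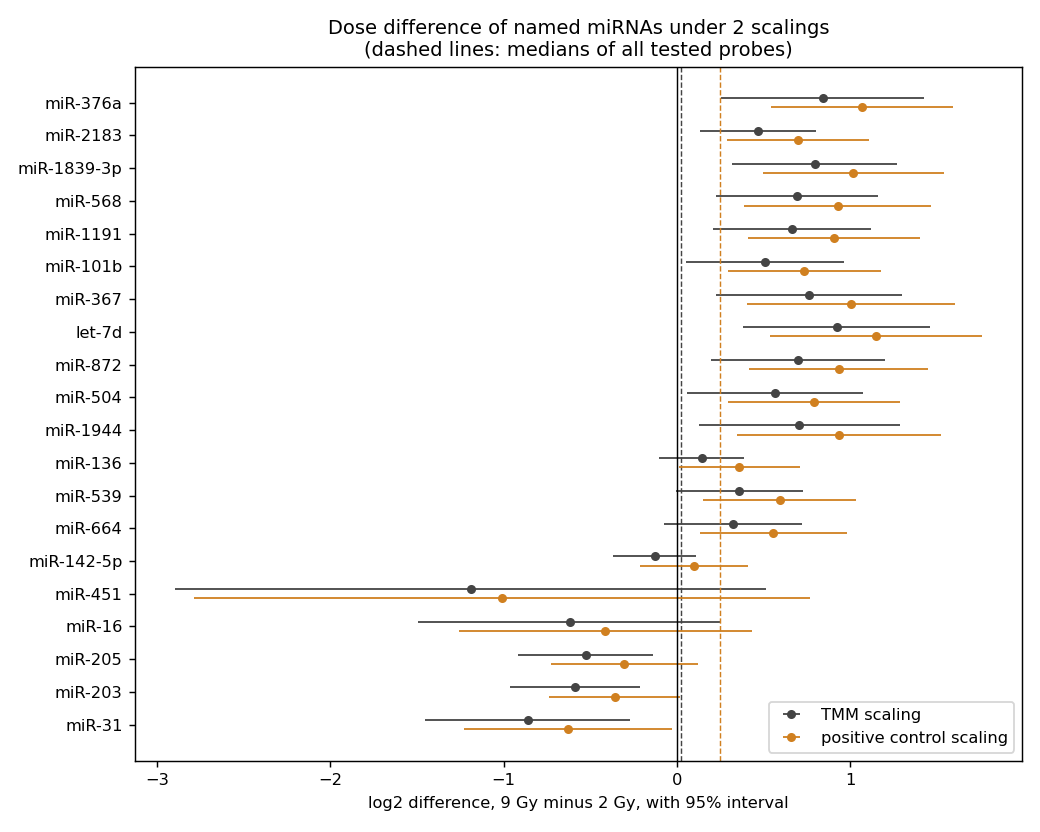
The log2 difference between 9 Gy and 2 Gy for 20 named miRNAs, with TMM in dark grey and POS scaling in orange. Points are edgeR estimates, bars are 95% intervals from the same test, the solid line is 0 and the dashed lines are the medians of all 167 probes, 0.02 and 0.25. POS scaling moves each miRNA to the right, and the intervals of miR-451 (-2.89 to 0.52 with TMM) are wider than those of the other miRNAs drawn.

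Blood cell miRNAs give a view of which cells the vesicles or the plasma carried RNA from. In such samples fewer vesicles of a cell type and less RNA per vesicle cannot be told apart. miR-451, the erythroid miRNA cut by Argonaute 2 itself, had TMM-scaled counts of 80.9, 182, 23.1, 173 and 273 at 2 Gy and 106, 122, 29.3, 14.8 and 48.3 at 9 Gy. It varied over more than 10-fold within the 2 Gy group, and the doses overlapped. The log2 difference was -1.19 ± 0.74 with TMM (SE, edgeR adjusted p 0.550). miR-16, abundant in red cells and a repressor of Bcl2, had 37, 46, 16, 60 and 66 counts against 44, 51, 23, 22 and 42. Its log2 difference was -0.62 ± 0.39 with TMM (SE, edgeR adjusted p 0.550), and it was low in the same 2 Gy sample, replicate 3, as miR-451. miR-16 passed as lower in 1 of 30 alternatives to the TMM fit.

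Of the 5 red cell probes 4 were tested, with 1 above and 3 below 0 and a median of -0.52 with TMM, -0.30 with POS scaling and -0.82 with total count scaling. The other members were miR-486, at -0.41 ± 0.38, and miR-15a, at 0.02 ± 0.24 with TMM (SE), the latter changing sign with total count scaling. The summed deposited counts of the 4 were 55 to 346 at 2 Gy and 68 to 226 at 9 Gy, and miR-144 was at a mean of 5.8. Their part in the results above was not tested. The platelet and myeloid miRNAs tested were miR-223 (-0.25 ± 0.31) and miR-146a (-0.36 ± 0.22), with TMM and edgeR adjusted p of 0.843 and 0.550 (SE). Their summed counts were 22 to 31 at 2 Gy and 20 to 35 at 9 Gy, and miR-126-3p and miR-126-5p were at means of 5.5 and 6.0.

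miR-142-5p, made throughout the hematopoietic lineage, had the third highest mean count. It had 577, 479, 644, 549 and 578 counts at 2 Gy and 510, 755, 620, 663 and 684 at 9 Gy. The doses overlapped, at -0.13 ± 0.12 with TMM and 0.10 ± 0.15 with POS scaling (SE, edgeR adjusted p 0.719 and 0.741). The TMM 95% interval ran from -0.37 to 0.11. miR-150, a miRNA of mature lymphocytes, was at -0.19 ± 0.27 with TMM and 0.03 ± 0.27 with POS scaling (SE). Its mean counts were 10.8 at 2 Gy and 11.8 at 9 Gy, near the background. The negative control means were 12.3 and 14.2 with NEG_C, and 6.97 and 7.57 without it. miR-155, induced in activated lymphocytes and macrophages, was at 1 count in all 5 samples at 2 Gy and at 44, 1, 1, 14 and 307 at 9 Gy. Since 1 is the smallest value in the table no fold is given. Only 3 of the 5 samples at 9 Gy were above 1, and the edgeR adjusted p was 0.208 with TMM and 0.107 with POS scaling. DESeq2 with its own size factors passed miR-155 alone. It met the count limit only through the 9 Gy samples. Liver and muscle miRNAs gave little signal, with 0 of 3 liver probes tested (highest mean 6.2) and 3 of 7 striated muscle probes, whose TMM median was -0.03 and whose POS-scaled median was 0.21.

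A cluster tied to cell division and further families were also described. All 5 tested probes of the miR-17 to 92 cluster and its paralogs, which promote proliferation, were below 0 with TMM (median -0.26), and with POS scaling 2 lay above and 3 below (median -0.03). Their highest counts came from the shared probe for miR-20a and miR-20b, with 35, 22, 30, 28 and 43 counts at 2 Gy against 34, 44, 36, 37 and 38, at -0.05 ± 0.19 with TMM and 0.17 ± 0.19 with POS scaling (SE). None of the 5 had an unadjusted p under 0.05 with either scaling. The miR-297, miR-466, miR-467 and miR-669 families, repeat-rich miRNAs grouped here by name and not by position, had 14 of 33 probes tested, 7 above and 7 below 0 with TMM, a median of -0.01, and 0.22 with POS scaling. miR-297c, the member with the highest counts, was at 0.21 ± 0.19 with TMM (SE, edgeR adjusted p 0.719). In the miR-30 family 2 of 5 probes were tested, miR-30b at 0.11 ± 0.20 and miR-30e at 0.03 ± 0.26 with TMM (SE), both turning negative with total count scaling. miR-377 of the Dlk1-Dio3 cluster was at -0.07 ± 0.21 with TMM and 0.15 ± 0.25 with POS scaling (SE).

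**Figure D5:**
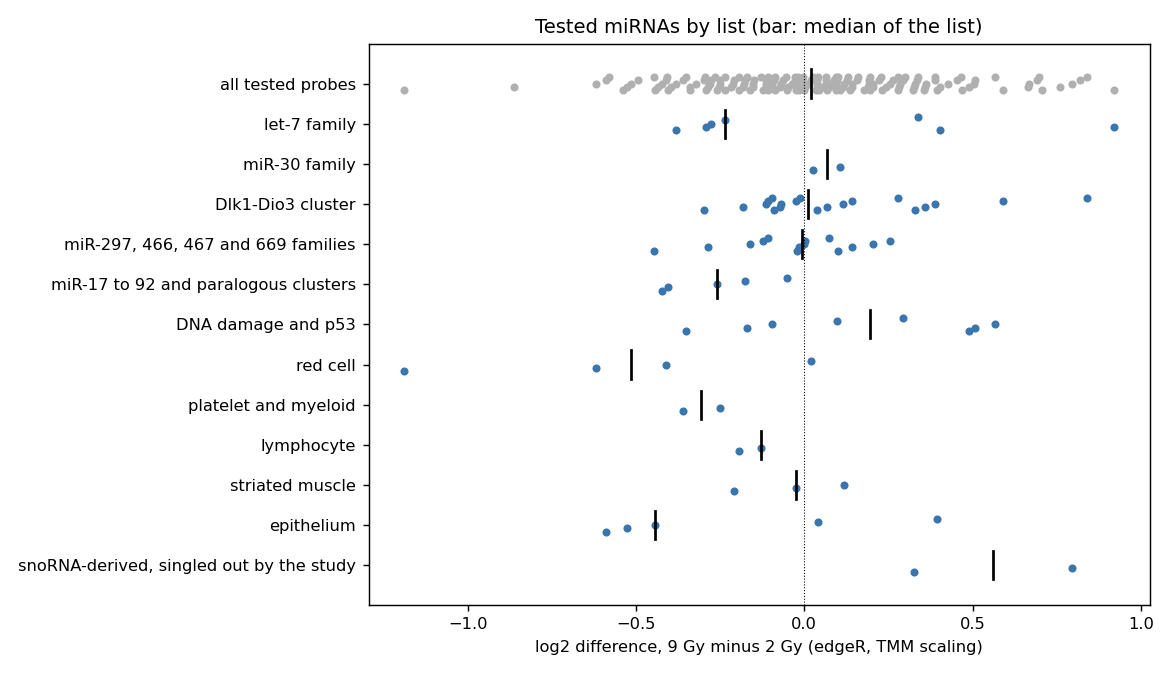
The log2 difference between 9 Gy and 2 Gy with TMM (edgeR) for the tested miRNAs of each list, 1 point per probe, with all tested probes in grey on top and a bar at each median. miR-155 is outside the drawn set but counted in its median. Of the 12 lists with tested members, the medians of 9 lie below the 0.02 of all probes and those of the DNA damage and p53, miR-30 and snoRNA-derived lists above it, and single members spread over both sides in the let-7 and Dlk1-Dio3 lists.

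The 125 probes not chosen for naming had means of 10 to 31.3 counts and log2 differences from -0.51 to 0.67 with TMM, with an edgeR adjusted p of at least 0.327. Over all 167 probes the TMM 95% interval stayed within 1 log2 unit of 0 for 143. No background was subtracted in that fit, so these intervals bound the difference in counts and not that in RNA. Over the alternatives to the TMM fit the log2 difference ran from 0.26 to 2.53 for miR-504 and from -2.74 to -0.30 for miR-205. At the count limit, miR-1193 (means of 9.2 counts at 2 Gy and 10.8 at 9 Gy) and miR-1946a (8.6 and 11.4) were just inside. miR-188-5p (7.8 and 12) and miR-710 (7.2 and 12.6) were just outside.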

How the data were processed

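The deposited values are raw counts per probe, as the authors exported them, with no positive control scaling and no background subtraction applied (control probes differed between samples). EVs were pelleted from plasma by differential centrifugation, a fixed mass of RNA entered each assay, and the authors' own normalisation was done in nSolver. No alignment or genome build was involved. All 14 columns were matched to samples by title, and 10 were used.

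TMM factors were computed over the 599 miRNA probes (566 mouse, 33 viral), and POS factors from the geometric mean of the hybridisation positive controls. Counts were fitted with edgeR 4.0.16 (robust quasi-likelihood, dose only, R 4.3.3). SE was derived from the log2 difference and its F statistic, and 95% intervals from the t quantile at the total degrees of freedom of the test (8.31 to 36.4 with TMM). Totals and controls were compared by exact permutation over all 252 splits, two-sided. The common biological coefficient of variation was 0.221. The smallest value was 1, held by 249 of 5660 mouse miRNA values, and whether 0 was written as 1 is not stated.

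On counts simulated at the observed dispersion for this comparison (191 tested probes), 25 of 32 changes of 1 log2 unit and 47 of 47 of 2 log2 units were recovered, with 3 false calls. Recovery with fewer altered probes than these was not tested. Nor was it tested separately for the more variable miRNAs, such as miR-451 and miR-155.

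Over the 167 probes, 2 of the 20 pairs of samples within a dose (2 Gy replicates 2 and 4, and 4 and 5) differed by no more than sampling noise (chi-square). With all 626 probes every pair differed (largest p 0.0202), so the samples were kept apart, and sums of those pairs were tried as alternatives.

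Named were probes past the threshold with either scaling, the 10 higher and 5 lower with the smallest unadjusted p with TMM, the 10 most abundant, the tested let-7, miR-30, red cell, platelet and myeloid, lymphocyte and snoRNA-derived probes, and members of other lists with an unadjusted p under 0.05 or a mean of at least 30. The rule places 42 probes, and miR-376b, miR-376c, miR-25, miR-19b, miR-101a, miR-34b-3p, miR-141 and miR-429 were added after their values were seen. The miRNAs, lists and tests were chosen with earlier results of these data known. Alternatives were other scalings, count limits and background subtractions, all 3 groups in 1 fit, a ligation covariate, a replicate block, each sample left out, DESeq2 1.42.0, limma-voom (limma 3.58.1) and exact permutation. Figures were drawn with matplotlib 3.10.9.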

Additional observations from a re-analysis of the deposited data

Results flagged for a closer look

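In 5 of 94 tests, each over the 5 samples of 1 dose for a named miRNA (TMM-scaled count) or a control, the highest sample stood apart from the rest by Dixon's criterion, which chance alone gives in about 1 of 20 groups. In 2 Gy replicate 1, miR-2183 was at 166 against 102 to 119 in the other samples of that dose, miR-377 at 116 against 45.2 to 63.3, and miR-1191 at 25.2 against 15.1 to 17.9. In 9 Gy replicate 1, miR-30b was at 67.1 against 43.5 to 48.8. In 9 Gy replicate 5, miR-155 was at 235 against 0.887 to 46.9. The cause of these values was not tested.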

How the results depend on the processing

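With TMM, the count of 0 miRNAs was unchanged by size factors from DESeq2, scaling to the 100 highest miRNAs, TMM without miR-376a or over the tested probes alone, no count limit, viral probes added, the median negative control subtracted, all 3 groups in 1 fit, a ligation covariate, limma-voom, sums of 2 Gy replicates 4 and 5 or 2 and 4, and an adjusted p under 0.1. It became 11 with scaling to the hybridisation controls, 5 with scaling to the ligation controls, 3 (all lower) with total count scaling, 1 with a mean of at least 30 counts, 4 with the negative control mean plus 2 SD subtracted (16 probes left), 1 with DESeq2 and 20 at an unadjusted p under 0.05. Leaving out single samples gave 0 to 3, with 3 without 2 Gy replicate 1, 2 without 9 Gy replicate 2 and 1 without 9 Gy replicate 3. With POS scaling, the count of 11 was 11 with DESeq2, 12 with all 3 groups in 1 fit and 15 at an adjusted p under 0.1, and became 4 with no count limit, 5 with a mean of at least 30, 1 with the median negative control subtracted, 2 with a ligation covariate, 0 with limma-voom, 0 with 2 Gy replicates 4 and 5 summed, 6 with 2 and 4 summed, and 35 at an unadjusted p under 0.05, and single samples left out gave 0 to 9. The exact permutation test per miRNA passed 0 with either scaling, but at its smallest p of 0.00794 at least 27 probes would have to reach that p for any to pass, so it says little about stability. The POS alternatives and the sums were chosen after seeing the data. The replicate block gave 4 with TMM (let-7d, miR-155, miR-1839-3p and miR-376a) and 12 with POS scaling. The replicate numbers did not pair the samples (correlations of deviations from the group means -0.05, -0.03, 0.16, -0.03 and -0.05). The negative control mean, at 0.22 log2 units higher at 9 Gy, was 0.13 to 0.26 with single samples left out, and passed an exact permutation p of 0.05 without 2 Gy replicate 1, 3 or 5 (0.25, 0.26 and 0.25). With NEG_C left out the difference was 0.11 (exact permutation p 0.175), and 0.06 to 0.16 with single samples left out (exact permutation p 0.0635 to 0.341).

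The sign changed for miRNAs whose TMM log2 differences ran from -0.19 (miR-150) to 0.34 (let-7e). With total count scaling the log2 differences were -0.15 for miR-136, -0.10 for miR-297c, -0.19 for miR-30b, -0.0017 for let-7e, -0.31 for miR-15a and -0.30 for miR-30e. With POS scaling they were 0.10 for miR-142-5p, 0.15 for miR-377, 0.13 for miR-421, 0.17 for miR-20a with miR-20b and 0.0343 for miR-150, and with ligation scaling 0.00254, 0.106, 0.0484 and 0.0671 for the first 4. After subtraction of the median negative control they were 0.0144 for miR-377, 0.0673 for miR-421, 0.11 for miR-20a with miR-20b and 0.12 for miR-150, and after subtraction of the mean plus 2 SD 0.19 for miR-142-5p and -0.10 for miR-30b. The ligation covariate gave 0.0079 for miR-20a with miR-20b, -0.0071 for miR-15a and -0.0791 for miR-30e. The 100 highest miRNAs as reference gave -0.0547 for miR-15a and -0.0511 for miR-30e, TMM over the tested probes -0.0018 for miR-15a, limma-voom -0.0231 for miR-30e, and mean log2 values for the exact permutation 0.0030 for miR-377. The causes were not tested. Most probes had under 20 counts, and differences under 1 log2 unit were not simulated.

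Leaving out single samples gave -0.18 to 0.23 for miR-377, -0.0231 to 0.19 for miR-30b, -0.14 to 0.0719 for miR-20a with miR-20b, -0.12 to 0.14 for miR-15a, -0.0619 to 0.10 for miR-30e.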
